A study of Homo sapiens with 24 samples.

Results

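The genes described here are 10 amino acid transporters of the plasma membrane, SLC6A14, SLC7A5, SLC3A2, SLC7A11, SLC1A4, SLC1A5, SLC7A1, SLC7A2, SLC38A1 and SLC38A2, in BT-474 cells. They were chosen by name, and each was read from the probe set with the highest mean over all 24 arrays among the probe sets that the annotation gives to that gene alone. All 10 were above the filter on low levels, among 14335 genes tested. BT-474, an established line from a human breast tumour, carries extra copies of ERBB2 and expresses the estrogen receptor. The study combined 2 siRNAs, 2 treatments and 2 times on Affymetrix HG-U133 Plus 2.0 arrays. Cells carried either a control siRNA or an siRNA against HER2, the receptor tyrosine kinase encoded by ERBB2. They were treated with 10 nM estrogen or with its vehicle, 0.001% ethanol, for 4 h or for 24 h. Each of the 8 combinations of siRNA, treatment and time was measured on 3 arrays. All groups are therefore transfected cells of 1 cell line, and no untransfected cells were analysed here. Whether replicates came from different cultures is not in the labels, and the p-values therefore speak only for the spread among these arrays. Levels are log2 RMA values, differences are log2 differences ± SE from limma, and a gene passed, or was called, at a Benjamini-Hochberg adjusted p under 0.05 over all tested genes.

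Cells take up amino acids through carriers that differ in what they move and in what drives them. The protein of SLC7A5, LAT1, exchanges large neutral amino acids such as leucine, and that of SLC7A11, xCT, exchanges glutamate for the cystine from which glutathione is made. Both sit in the membrane as partners of the heavy chain encoded by SLC3A2. SLC1A4 (ASCT1) and SLC1A5 (ASCT2) are sodium-dependent exchangers of small neutral amino acids, and ASCT2 is known for glutamine uptake in tumour cells. SLC7A1 (CAT1) and SLC7A2 (CAT2) carry arginine and lysine, SLC38A1 (SNAT1) and SLC38A2 (SNAT2) bring in glutamine and alanine with sodium, and SLC6A14 moves neutral and cationic amino acids together with sodium and chloride. Several of these genes are known targets of ATF4, the transcription factor that cells use when amino acids run short.

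ERBB2 itself, the target of the siRNA, ranged from 13.39 to 13.94 over the 12 control arrays and from 11.86 to 12.69 over the 12 arrays with HER2 siRNA, with no overlap. The averaged difference was -1.34 ± 0.06 (log2, SE, with an adjusted p of 1.1e-14 in limma). By condition it ran from -1.56 ± 0.11 (vehicle 4 h) to -1.09 ± 0.11 (estrogen 24 h). At 24 h ERBB2 was lower with estrogen in control cells (-0.46 ± 0.11, adjusted p = 0.0077), and with HER2 siRNA this did not pass (-0.21 ± 0.11, adjusted p = 0.38). All 9 luminal epithelial markers were above the filter, at 8.60 to 13.94, whereas of 12 markers of leukocytes, endothelium and fibroblasts 10 had a probe set of their own and 6 passed it. Over those 10 markers the mean level per array was 5.40 to 5.54 with HER2 siRNA and 5.33 to 5.48 with control siRNA. PTPRC, CDH5, COL3A1 and PDGFRB were below the filter, COL1A1 was at 8.93 to 10.02, and with HER2 siRNA LYZ (1.08 ± 0.17) and COL1A1 (0.35 ± 0.07) were higher and VWF (-0.32 ± 0.07) lower. Their part in the results below was not tested. The medians of the arrays lay between 5.28 and 5.36, and correlations within a group between 0.991 and 0.997. The difference between the 3' and the 5' probe sets of GAPDH, a sign of RNA quality on the log2 scale, was 0.443 ± 0.060 with HER2 siRNA and 0.305 ± 0.066 with control siRNA (SD, n = 12 each; 2-sided permutation test, p = 0.000140, adjusted over 6 tests p = 0.000840). It thus moved with the siRNA, and its part in the siRNA results was not tested except as a covariate, given below. In these bulk samples fewer cells with a transcript and less of it per cell cannot be told apart.

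Promoter windows of 300 bases, from 250 before to 50 after a start, were matched for 8 of the 10 genes (14 windows, RefSeq, GRCh38.p14). The core of the amino acid response element, TGATGNAA, to which ATF4 binds with a partner of the C/EBP family, was found on either strand in 5 of the 14 windows, in 5 genes. It was present in 3.62% of the 35116 windows of all genes. Those 5 stretches of 30 bases are printed because they are the sequence that these members share, with the matched letters in capitals, each 5' to 3' on the strand of its gene.
SLC1A4: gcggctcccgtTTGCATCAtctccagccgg
SLC3A2: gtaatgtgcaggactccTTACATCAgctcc
SLC38A1: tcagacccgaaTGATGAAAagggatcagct
SLC7A1: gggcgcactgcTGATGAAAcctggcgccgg
SLC1A5: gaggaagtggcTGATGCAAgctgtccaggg
They lie at chr2:64989381-64989410 on the plus strand for SLC1A4, at chr11:62881719-62881748 on the plus strand for SLC3A2, and at chr12:46266502-46266531 on the minus strand for SLC38A1. The stretch of SLC7A1 is at chr13:29595663-29595692 and that of SLC1A5 at chr19:46784893-46784922, both on the minus strand. In SLC1A4 and SLC3A2 the core is read on the other strand. Counted from the start to which its window belongs, the match begins at -7 in SLC1A4, -4 in SLC38A1, 8 in SLC7A1, 38 in SLC3A2 and -97 in SLC1A5. SLC7A1 has 1 window, at the outermost start of the gene. SLC1A4 and SLC38A1 have 2 windows each, and SLC3A2 and SLC1A5 have 3 each. In all of these but SLC7A1 the matched window belongs to an alternative start inside the gene. A match describes letters only and is not a shown site of binding.

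SLC6A14 and SLC7A5 had the largest differences with estrogen of the 10 genes, so the 250 bases before their starts are printed as well. The window of SLC6A14 lies at chrX:116436356-116436605 on the plus strand, with an AP-1 site (TGANTCA, 7.71% of all windows) in capitals. That of SLC7A5 lies at chr16:87869508-87869757 on the minus strand, with an E-box (CACGTG, 7.26% of all windows) in capitals.
SLC6A14: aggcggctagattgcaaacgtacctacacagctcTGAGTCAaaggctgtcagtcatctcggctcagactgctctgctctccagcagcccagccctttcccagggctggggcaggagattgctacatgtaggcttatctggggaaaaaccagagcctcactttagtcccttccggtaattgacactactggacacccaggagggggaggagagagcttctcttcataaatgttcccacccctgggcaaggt
SLC7A5: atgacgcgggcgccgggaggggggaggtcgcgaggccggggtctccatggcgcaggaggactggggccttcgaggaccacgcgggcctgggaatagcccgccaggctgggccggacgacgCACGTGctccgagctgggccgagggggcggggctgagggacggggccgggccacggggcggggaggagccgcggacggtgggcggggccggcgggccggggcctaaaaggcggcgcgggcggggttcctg
The 2 windows differ in base composition, with 54.8% G and C in SLC6A14 and 79.6% in SLC7A5. The full palindrome of the estrogen response element was in none of the 14 windows and in 0.0570% of all windows. The other motifs searched on both strands were the antioxidant response element core (TGACNNNGC, 4 of 14 windows against 13.3% of all), the E-box (2 of 14), the AP-1 site (3 of 14) and a FOXO site (GTAAACA, 1 of 14 against 3.42% of all). In SLC3A2 the AP-1 match overlaps that of the antioxidant core.

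SLC6A14 (chrX:116436606-116461458 in GRCh38.p14, Entrez 11254) had 1 probe set and the widest range of the 10 genes, from 6.54 to 11.78 over the 24 arrays. With control siRNA and vehicle the arrays were at 6.99, 6.95 and 6.54 at 4 h and at 6.93, 6.80 and 6.95 at 24 h. With control siRNA and estrogen they were at 7.85, 8.45 and 8.34 at 4 h and at 10.13, 10.41 and 10.56 at 24 h. Every array with estrogen was thus above every array with vehicle in control cells, and those at 24 h were the highest. With HER2 siRNA and vehicle the arrays were at 7.82, 7.77 and 8.30 at 4 h and at 8.65, 8.49 and 8.91 at 24 h. With HER2 siRNA and estrogen they were at 8.40, 9.30 and 9.59 at 4 h and at 11.26, 11.55 and 11.78 at 24 h. The 3 arrays with both HER2 siRNA and estrogen at 24 h were the highest of all 24. From the highest, the order of group means was HER2 siRNA estrogen 24 h (11.53 ± 0.26, SD), control estrogen 24 h (10.37 ± 0.22), HER2 siRNA estrogen 4 h (9.10 ± 0.62), HER2 siRNA vehicle 24 h (8.68 ± 0.21), control estrogen 4 h (8.21 ± 0.32), HER2 siRNA vehicle 4 h (7.97 ± 0.29), control vehicle 24 h (6.89 ± 0.08) and control vehicle 4 h (6.83 ± 0.25). Neighbours overlapped between HER2 siRNA estrogen 4 h and HER2 siRNA vehicle 24 h, between control estrogen 4 h and HER2 siRNA vehicle 4 h, and between the 2 vehicle groups of control cells.

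**Figure D1:**
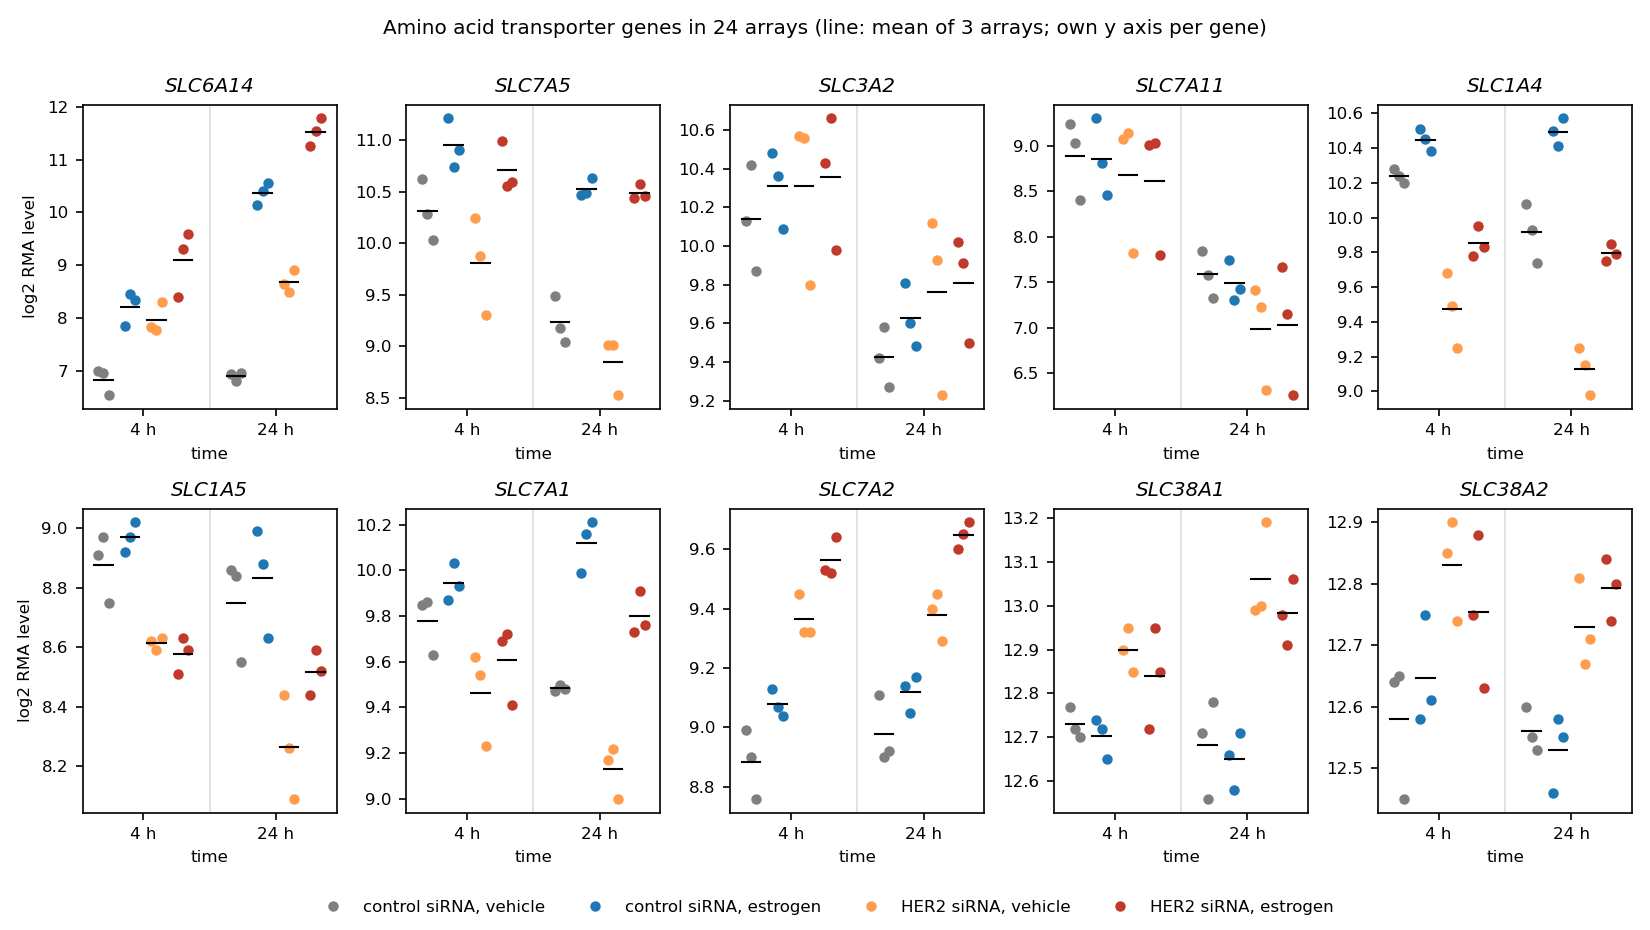
Log2 RMA level (y axis, own scale for each gene) of the 10 transporter genes in 24 arrays by time (x axis). Points are arrays, coloured by siRNA and treatment, and lines are means of 3 arrays. SLC6A14 spans 6.54 to 11.78, with HER2 siRNA and estrogen at 24 h at the top, and SLC7A11 is lower at 24 h than at 4 h in all 4 conditions.

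SLC6A14 rose with estrogen in all 4 comparisons. The difference was 1.39 ± 0.23 at 4 h in control cells (2.61-fold, 95% interval 1.87 to 3.64; adjusted p = 0.0034) and 3.48 ± 0.23 at 24 h (11.1-fold, 7.98 to 15.5; adjusted p = 2.5e-09). With HER2 siRNA it was 1.13 ± 0.23 at 4 h (2.19-fold; adjusted p = 0.014) and 2.85 ± 0.23 at 24 h (7.19-fold; adjusted p = 2.1e-08). By the size of the difference SLC6A14 was the 8th of 14335 genes at 4 h and the 3rd at 24 h in control cells. The call at 4 h with HER2 siRNA ended when only the compared groups were fitted (adjusted p = 0.39), and without vehicle replicate 1 (0.087), vehicle replicate 2 (0.080), estrogen replicate 2 (0.099) or estrogen replicate 3 (0.16). That estrogen replicate 3, at 9.59 the highest of its group, carries 24 h in its source name and was placed at 4 h by its other labels. HER2 siRNA raised SLC6A14 as well, by 1.14 ± 0.23 at 4 h and 1.79 ± 0.23 at 24 h under vehicle, and by 0.89 ± 0.23 and 1.16 ± 0.23 at the same times under estrogen (adjusted p at most 0.0048). Only with estrogen at 4 h did the arrays of the 2 siRNAs overlap. Averaged over the 4 conditions the difference was 1.24 ± 0.12, or 2.37-fold (2.00 to 2.79; adjusted p = 4.5e-09).

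SLC7A5 (chr16:87830023-87869507, Entrez 8140) had 1 probe set. In control cells it was at 10.62, 10.28 and 10.03 with vehicle at 4 h and at 9.49, 9.18 and 9.04 with vehicle at 24 h. With estrogen the control arrays were at 11.21, 10.74 and 10.90 at 4 h and at 10.47, 10.49 and 10.63 at 24 h. The vehicle arrays at 24 h were the lowest of these and lay apart from all others. With HER2 siRNA the levels were 10.24, 9.88 and 9.30 with vehicle at 4 h and 9.01, 9.01 and 8.53 with vehicle at 24 h. With HER2 siRNA and estrogen they were 10.99, 10.55 and 10.59 at 4 h and 10.44, 10.57 and 10.46 at 24 h. Again vehicle at 24 h was lowest, and no vehicle array reached an estrogen array of the same siRNA and time. From the highest, the group means were 10.95 ± 0.24 (SD; control estrogen 4 h), 10.71 ± 0.25 (HER2 siRNA estrogen 4 h), 10.53 ± 0.08 (control estrogen 24 h), 10.49 ± 0.07 (HER2 siRNA estrogen 24 h), 10.31 ± 0.29 (control vehicle 4 h), 9.81 ± 0.48 (HER2 siRNA vehicle 4 h), 9.24 ± 0.23 (control vehicle 24 h) and 8.85 ± 0.28 (HER2 siRNA vehicle 24 h). All neighbours in this order overlapped except the last pair.

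The difference of SLC7A5 with estrogen was 0.64 ± 0.20 at 4 h in control cells (adjusted p = 0.42), 1.30 ± 0.20 at 24 h in control cells (2.46-fold, 1.85 to 3.26; adjusted p = 0.00011), 0.91 ± 0.20 at 4 h with HER2 siRNA (adjusted p = 0.025) and 1.63 ± 0.20 at 24 h with HER2 siRNA (3.10-fold, 2.34 to 4.12; adjusted p = 8.3e-06). Both increases at 24 h thus passed the threshold, and of those at 4 h the one with HER2 siRNA did. That call at 4 h ended in 8 of its alternatives, among them the fit without HER2 siRNA vehicle replicate 2 (adjusted p = 0.061) or 3 (0.23) and without HER2 siRNA estrogen replicate 1 (0.18) or 3 (0.062). With vehicle SLC7A5 fell by 1.07 ± 0.20 from 4 h to 24 h in control cells (adjusted p = 0.015) and by 0.95 ± 0.20 with HER2 siRNA (adjusted p = 0.0067). With estrogen the change from 4 h to 24 h was -0.42 ± 0.20 in control cells (adjusted p = 0.23) and -0.23 ± 0.20 with HER2 siRNA (adjusted p = 0.60), neither past the threshold. Tested directly, the estrogen effect on SLC7A5 at 24 h minus that at 4 h did not pass. It was 0.65 in control cells (adjusted p = 0.33) and 0.73 with HER2 siRNA (adjusted p = 0.42). The fall in control cells lost its call without vehicle 4 h replicate 1 (adjusted p = 0.10) or 2 (0.052) or vehicle 24 h replicate 2 (0.063) or 3 (0.086), and the fall with HER2 siRNA without vehicle 4 h replicate 1 (0.067) and with only the compared groups fitted (0.13). Averaged over the 4 conditions SLC7A5 was lower with HER2 siRNA, by a difference of -0.29 ± 0.10 (81.6% of control, 95% interval 70.8 to 94.0; adjusted p = 0.013). With the GAPDH difference as a covariate it was -0.35 ± 0.16 and no longer past the threshold (adjusted p = 0.095). In single conditions it ranged from -0.50 ± 0.20 (vehicle 4 h, adjusted p = 0.053) to -0.05 ± 0.20 (estrogen 24 h), and none passed. The one with vehicle at 4 h did pass without control replicate 3 (adjusted p = 0.029) or HER2 siRNA replicate 1 (0.0077). With the replicate number as a block the 2 differences with vehicle did (adjusted p = 0.011 at 4 h and 0.042 at 24 h).

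SLC3A2 (chr11:62856109-62888860, Entrez 6520), the heavy chain of both LAT1 and xCT, was read from 1 probe set. In control cells it was at 10.13, 10.42 and 9.87 at 4 h and 9.42, 9.58 and 9.27 at 24 h under vehicle. Under estrogen the arrays read 10.48, 10.36 and 10.09 at 4 h and 9.81, 9.60 and 9.48 at 24 h. The arrays at 24 h were below those at 4 h of the same treatment. With HER2 siRNA it was at 10.57, 10.56 and 9.80 at 4 h and 10.12, 9.93 and 9.23 at 24 h under vehicle. With estrogen the levels were 10.43, 10.66 and 9.98 at 4 h and 10.02, 9.91 and 9.50 at 24 h. Replicate 3 was the lowest array of each of these groups. SLC3A2 passed in none of the 4 estrogen comparisons, with differences of 0.05 to 0.21 ± 0.23 and intervals from -0.42 to 0.68. With HER2 siRNA the averaged difference was 0.19 ± 0.11 (95% interval -0.05 to 0.42; adjusted p = 0.17), and it passed without HER2 siRNA replicate 3 with vehicle at 24 h (0.041) or at 4 h (0.048). It also passed with the replicate number as a block (adjusted p = 0.012). With the GAPDH difference as a covariate its sign turned, to -0.14 ± 0.17 (adjusted p = 0.55). The 4 groups at 4 h had the highest means, 10.14 to 10.36, and the 4 groups at 24 h the lowest, 9.42 to 9.81. With HER2 siRNA the arrays of the 2 times overlapped. The averaged change from 4 h to 24 h, a comparison added after the values were seen, was -0.62 ± 0.11 (adjusted p = 0.00061). In the 4 conditions it was -0.71 to -0.55 ± 0.23, and none passed the threshold on its own (adjusted p = 0.081 to 0.17). In control cells with estrogen it passed with only the compared groups fitted (0.027), and with HER2 siRNA and vehicle without 4 h replicate 3 (-0.80, adjusted p = 0.035). Equal replicate numbers were taken as pairs in some comparisons, by a rule given under processing. One was HER2 siRNA with vehicle over time, where the blocked fit gave an adjusted p of 0.0063. For another, HER2 siRNA against control with vehicle at 24 h (0.34), it gave 0.029. The latter also passed without HER2 siRNA replicate 3 (0.60, adjusted p = 0.039).

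SLC7A11 (chr4:138164097-138242349, Entrez 23657) was lower at 24 h than at 4 h. In control cells with vehicle its levels were 9.24, 9.03 and 8.40 at 4 h and 7.84, 7.58 and 7.33 at 24 h. With estrogen the control arrays were at 9.30, 8.81 and 8.46 at 4 h and at 7.74, 7.30 and 7.42 at 24 h. Every control array at 24 h was thus below every control array at 4 h. With HER2 siRNA and vehicle the levels were 9.07, 9.14 and 7.82 at 4 h and 7.41, 7.23 and 6.31 at 24 h. With HER2 siRNA and estrogen they were 9.01, 9.03 and 7.80 at 4 h and 7.67, 7.15 and 6.26 at 24 h. The times again did not overlap, and within each HER2 siRNA group replicate 3 was the lowest array.

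The change of SLC7A11 from 4 h to 24 h was -1.49 ± 0.20 on average (35.7% of the level at 4 h, 95% interval 26.9 to 47.4; adjusted p = 2.6e-05; a comparison added after the values were seen). By size this was the 6th of 14335 genes. In single conditions it was -1.30 ± 0.39 in control cells with vehicle (adjusted p = 0.13), -1.37 ± 0.39 in control cells with estrogen (0.042), -1.69 ± 0.39 with HER2 siRNA and vehicle (0.014) and -1.58 ± 0.39 with HER2 siRNA and estrogen (0.017). The call in control cells with estrogen ended in 12 alternatives, without each of 24 h replicates 2 and 3 and 4 h replicates 1, 2 and 3 among them (adjusted p = 0.051 to 0.17). With HER2 siRNA the calls ended without 24 h replicate 3 or 4 h replicates 1 or 2, at adjusted p of 0.051 to 0.095 with vehicle and 0.091 to 0.14 with estrogen, and with only the compared groups fitted (0.12 and 0.079), a setting in which control cells with vehicle passed (0.038). For HER2 siRNA with vehicle, where equal replicate numbers were taken as pairs, the call stood in the blocked fit. Apart from left-out arrays it stood in 10 of 11 settings, which gave adjusted p of 2.4e-05 to 0.12. Neither estrogen (differences of -0.10 to 0.04 ± 0.39) nor HER2 siRNA (averaged -0.38 ± 0.20, 95% interval -0.79 to 0.03; adjusted p = 0.10) gave a call. The averaged siRNA difference passed with the replicate number as a block (-0.38 ± 0.10, adjusted p = 0.0021). It also passed with the GAPDH covariate (-0.83 ± 0.30, adjusted p = 0.030) and without HER2 siRNA estrogen 24 h replicate 1 (-0.46, adjusted p = 0.047). In the blocked fit the siRNA difference with vehicle at 24 h, -0.60 ± 0.20, had an adjusted p of 0.017. Without the block the intervals of the estrogen differences reached from -0.92 to 0.86, the widest of the 10 genes. Changes within that range could not be resolved in the fit without the block.

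Replicate 3 stood below the others for SLC7A11 and for SLC3A2. Its level of SLC7A11 minus the mean of replicates 1 and 2 was -1.29 to -1.01 in the 4 HER2 siRNA groups and -0.74 to -0.10 in the 4 control groups, and it was the lowest array in 4 and in 3 of these. For SLC3A2 the same difference was -0.80 to -0.47 with HER2 siRNA and -0.41 to -0.23 with control siRNA, and replicate 3 was the lowest in all 8 groups. Without replicate 3 of the HER2 siRNA group the sign of the SLC7A11 siRNA difference at 4 h turned, from -0.21 to 0.21 with vehicle and from -0.25 to 0.16 with estrogen, none of these past the threshold. These fits kept control replicate 3, also the lowest of its groups at 4 h (8.40 with vehicle and 8.46 with estrogen). The groups in these fits were thus no longer matched by replicate number, and its part in the turned signs was not tested. Leaving replicate 3 out of both groups was not tested. The sample numbers in the labels run on without a gap over the 8 arrays of replicate 3, and likewise over those of replicate 2, and what they count is not given there.

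**Figure D2:**
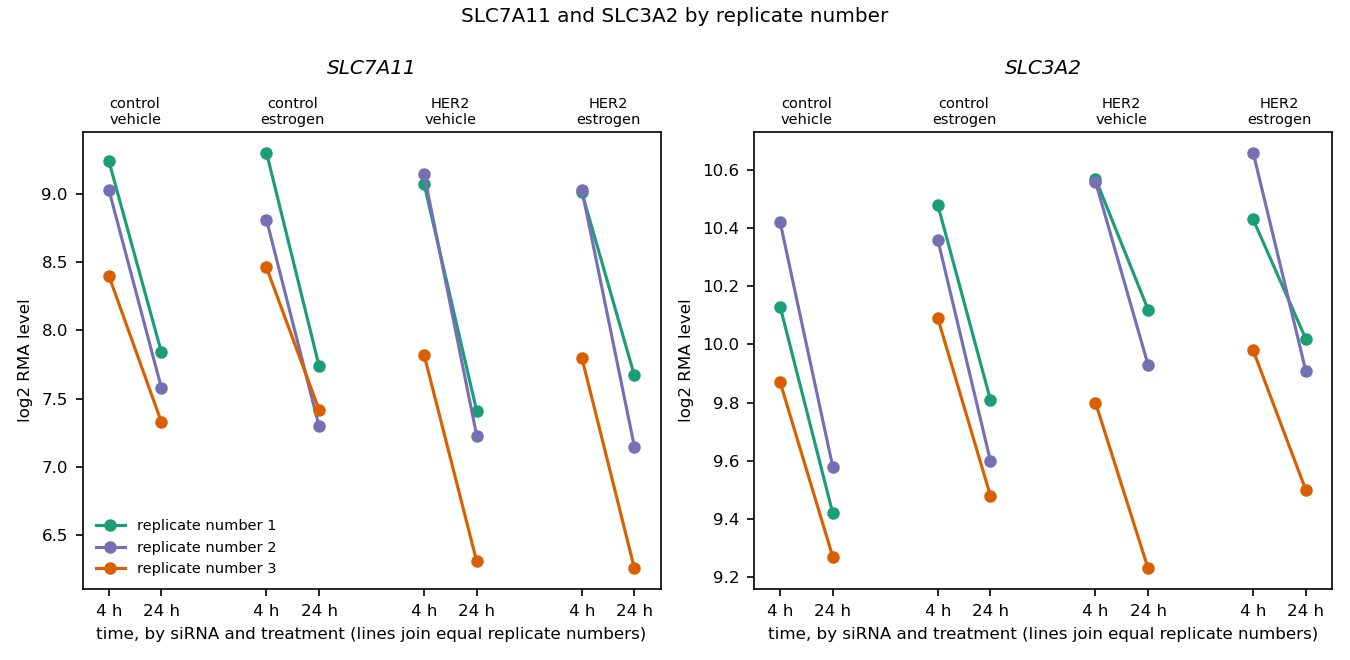
Log2 RMA level (y axis) of SLC7A11 (left) and SLC3A2 (right) at 4 h and 24 h in each siRNA and treatment (x axis). Points are single arrays and lines join arrays of equal replicate number. Replicate 3 is lowest in 7 of 8 groups for SLC7A11 and in 8 of 8 for SLC3A2, and the lines fall from 4 h to 24 h.

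SLC1A4 (chr2:64988479-65023865, Entrez 6509) fell with HER2 siRNA in every condition. In control cells its levels were 10.28, 10.24 and 10.20 at 4 h and 10.08, 9.93 and 9.74 at 24 h under vehicle. Under estrogen it was at 10.51, 10.45 and 10.38 at 4 h and 10.50, 10.41 and 10.57 at 24 h. Estrogen arrays were thus above vehicle arrays at both times. With HER2 siRNA the levels were 9.68, 9.49 and 9.25 at 4 h and 9.25, 9.15 and 8.98 at 24 h under vehicle. The estrogen arrays read 9.78, 9.95 and 9.83 at 4 h and 9.75, 9.85 and 9.79 at 24 h. Within each treatment and time all HER2 siRNA arrays were below all control arrays. The differences were -0.77, -0.79, -0.59 and -0.70 (± 0.10 each; vehicle 4 h, vehicle 24 h, estrogen 4 h, estrogen 24 h; adjusted p at most 6.9e-05) and -0.71 ± 0.05 on average (61.0% of control, 56.8 to 65.5; adjusted p = 3.9e-11). Its 5 probe sets all gave a lower level with HER2 siRNA, from -0.71 to -0.35. Estrogen raised SLC1A4 at 24 h, by 0.57 ± 0.10 in control cells (adjusted p = 0.00042) and by 0.67 ± 0.10 with HER2 siRNA (adjusted p = 0.00010). At 4 h the differences were 0.21 ± 0.10 (adjusted p = 1.0) and 0.38 ± 0.10 (adjusted p = 0.10), the latter past the threshold without HER2 siRNA vehicle replicate 1 (0.024). Tested on their own, the dimmest probe sets of SLC1A4 did not pass with estrogen at 24 h. They were at 0.36 and 0.32 in control cells and at 0.09 and 0.39 with HER2 siRNA, whereas its other probe sets passed with both siRNAs. From the highest, both control estrogen groups (10.49 ± 0.08, SD, at 24 h and 10.45 ± 0.06 at 4 h) overlapped and came before control vehicle 4 h (10.24 ± 0.04) and 24 h (9.92 ± 0.17). HER2 siRNA with estrogen (9.86 ± 0.08 at 4 h and 9.79 ± 0.05 at 24 h) followed, overlapping with control vehicle 24 h, and HER2 siRNA with vehicle (9.47 ± 0.21 and 9.13 ± 0.14) was lowest.

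SLC1A5 (chr19:46774883-46788594, Entrez 6510), read from 1 probe set, ranged from 8.55 to 9.02 over the 12 control arrays (median 8.89) and from 8.09 to 8.63 over the 12 HER2 siRNA arrays (median 8.55). The ranges overlapped at their edges, but within each treatment and time all HER2 siRNA arrays were below all control arrays. The averaged difference was -0.37 ± 0.05 (77.6% of control, 72.2 to 83.4; adjusted p = 1.6e-06). By condition it was -0.26, -0.49, -0.39 and -0.32 (± 0.10 each), all past the threshold. The call with vehicle at 4 h (adjusted p = 0.049) ended in 10 alternatives, without control replicate 1 or 2 or any HER2 siRNA replicate among them (adjusted p = 0.089 to 0.17). That with estrogen at 24 h (adjusted p = 0.013) ended without control replicate 1 (0.085) or HER2 siRNA replicate 1 (0.056). Estrogen gave no call for SLC1A5, with differences of -0.04 to 0.25 ± 0.10 and intervals from -0.25 to 0.46. From 4 h to 24 h SLC1A4 fell by 0.35 ± 0.10 and SLC1A5 by 0.35 ± 0.10 with HER2 siRNA and vehicle (adjusted p = 0.039 and 0.040). Both calls ended without 4 h replicate 1 or 2 or 24 h replicate 2 or 3, and that of SLC1A5 also without 4 h replicate 3 (adjusted p = 0.075 to 0.27 for SLC1A4 and 0.063 to 0.18 for SLC1A5).

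Of the carriers of cationic amino acids, SLC7A1 (chr13:29509414-29595688, Entrez 6541) fell and SLC7A2 (chromosome 8, Entrez 6542) rose with HER2 siRNA. SLC7A1 in control cells was at 9.85, 9.86 and 9.63 at 4 h and 9.47, 9.50 and 9.48 at 24 h under vehicle. Under estrogen the arrays read 9.87, 10.03 and 9.93 at 4 h and 9.99, 10.16 and 10.21 at 24 h. The vehicle arrays at 24 h were the lowest of these. With HER2 siRNA it was at 9.62, 9.54 and 9.23 at 4 h and 9.17, 9.22 and 9.002 at 24 h under vehicle. With estrogen the levels were 9.69, 9.72 and 9.41 at 4 h and 9.73, 9.91 and 9.76 at 24 h. HER2 siRNA arrays were below control arrays in each condition, and estrogen arrays above vehicle arrays at 24 h. The siRNA difference was -0.33 ± 0.05 on average (79.5% of control, 73.7 to 85.8; adjusted p = 1.0e-05) and -0.31, -0.35, -0.34 and -0.32 (± 0.10 each) by condition. Estrogen raised it at 24 h by 0.64 ± 0.10 in control cells (adjusted p = 0.00026) and by 0.67 ± 0.10 with HER2 siRNA (adjusted p = 0.00020). This call came from the brightest of 4 probe sets above the filter. The others, tested with every probe set on its own, were at 0.46, 0.16 and -0.04 in control cells and at 0.33, 0.22 and 0.03 with HER2 siRNA, none past the threshold. With the mean of all 5 probe sets, which includes 1 below the filter, the differences were 0.25 and 0.29 (adjusted p = 0.021 and 0.012). At 4 h the differences were 0.17 ± 0.10 and 0.14 ± 0.10, with intervals from -0.08 to 0.38. Each siRNA call in a single condition ended when some 1 array was left out. These were control replicates 1 and 2 and HER2 siRNA replicate 3 with vehicle at 4 h (adjusted p = 0.084 to 0.18), HER2 siRNA replicate 3 with vehicle at 24 h (0.059), control replicate 2 and HER2 siRNA replicate 3 with estrogen at 4 h (0.067 to 0.12), and control replicates 2 and 3 and HER2 siRNA replicates 1 and 3 with estrogen at 24 h (0.057 to 0.075). From the highest the group means ran from 10.12 ± 0.12 (SD) in control estrogen 24 h to 9.13 ± 0.12 in HER2 siRNA vehicle 24 h, and all neighbours overlapped except the lowest group. Its other probe sets above the filter gave averaged siRNA differences of -0.57 ± 0.09, -0.14 ± 0.04 and -0.04 ± 0.07, the last not past the threshold, and with the mean of its probe sets the calls at 4 h ended (adjusted p = 0.18 with vehicle and 0.064 with estrogen).

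SLC7A2 in control cells was at 8.99, 8.90 and 8.76 at 4 h and 9.11, 8.90 and 8.92 at 24 h under vehicle. Under estrogen it was at 9.13, 9.07 and 9.04 at 4 h and 9.14, 9.05 and 9.17 at 24 h. Vehicle and estrogen arrays overlapped at 24 h and not at 4 h. With HER2 siRNA it was at 9.45, 9.32 and 9.32 at 4 h and 9.40, 9.45 and 9.29 at 24 h under vehicle. The estrogen arrays read 9.53, 9.52 and 9.64 at 4 h and 9.60, 9.65 and 9.69 at 24 h. All 12 HER2 siRNA arrays were above all 12 control arrays. The differences were 0.48, 0.41, 0.48 and 0.53 (± 0.08 each; adjusted p at most 0.00017) and 0.47 ± 0.04 on average (1.39-fold, 1.32 to 1.47; adjusted p = 3.9e-10). With estrogen the 4 differences were 0.14 to 0.26 ± 0.08, and 1 of them passed the threshold, at 24 h with HER2 siRNA (0.26, adjusted p = 0.040). That call ended in 10 alternatives, among them the fits without vehicle replicate 1 or 3 or any estrogen replicate (adjusted p = 0.058 to 0.18). The other 2 probe sets of SLC7A2 were below the filter, and with the mean of its probe sets the siRNA difference was 0.10 at 4 h (adjusted p = 0.24) and 0.01 at 24 h (0.88) with vehicle, neither past the threshold.

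SLC38A1 and SLC38A2 (chr12:46183063-46269043 and chr12:46358188-46372773, Entrez 81539 and 54407), the sodium-coupled glutamine carriers, rose slightly with HER2 siRNA. SLC38A1 ranged from 12.56 to 12.78 (median 12.71) over the control arrays and from 12.72 to 13.19 (median 12.95) over the HER2 siRNA arrays. The averaged difference was 0.25 ± 0.04 (1.19-fold, 1.13 to 1.26; adjusted p = 5.4e-06), with 0.37 ± 0.08 for vehicle and 0.33 ± 0.08 for estrogen at 24 h past the threshold and 0.17 ± 0.08 and 0.14 ± 0.08 at 4 h not. Its probe sets disagreed. Of 4, 2 were higher with HER2 siRNA (0.25 ± 0.04 and 0.30 ± 0.05), 1 was lower (-0.27 ± 0.09) and 1 did not pass (-0.02 ± 0.07). With the mean of the 4 the averaged difference was 0.06 (adjusted p = 0.13), and the 2 calls at 24 h ended too (0.07, adjusted p = 0.51, and 0.10, adjusted p = 0.30). SLC38A2 ranged from 12.45 to 12.75 (median 12.58) over the control arrays and from 12.63 to 12.90 (median 12.77) over the HER2 siRNA arrays, so that the ranges overlapped. The averaged difference was 0.20 ± 0.04 (1.15-fold, 1.08 to 1.21; adjusted p = 0.00012), and all 3 probe sets were higher, by 0.18 to 0.20. With the GAPDH difference as a covariate it was 0.10 ± 0.06 and no longer past the threshold (adjusted p = 0.18). By condition SLC38A2 passed at 4 h under vehicle (0.25 ± 0.08) and at 24 h under estrogen (0.27 ± 0.08). The first call ended without control replicate 3 (adjusted p = 0.097) or HER2 siRNA replicate 2 (0.062), and both ended with the GAPDH covariate (0.11 and 0.31). Estrogen gave no call for either gene, and its intervals ran from -0.24 to 0.23.

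Set side by side, HER2 siRNA moved the 10 genes both ways. On average over the 4 conditions SLC6A14, SLC7A2, SLC38A1 and SLC38A2 were higher and SLC1A4, SLC1A5, SLC7A1 and SLC7A5 lower. SLC3A2 and SLC7A11 did not pass the threshold in the fit without the block. That 8 of 10 passed has to be read against the whole table, where 59.2% of the tested genes did, 30.1% higher and 29.1% lower. With the replicate number as a block SLC3A2 (higher, adjusted p = 0.012) and SLC7A11 (lower, adjusted p = 0.0021) passed too. In that fit 8802 of 14335 genes passed, against 8490 without the block. The median difference of the 10 was -0.05, against 0.00 over all tested genes. In single conditions 6 passed under vehicle at 4 h (34.2% of all genes) and 6 at 24 h (41.5%). Under estrogen 5 passed at 4 h (34.1%) and 7 at 24 h (42.0%). SLC6A14, SLC1A4, SLC1A5, SLC7A1 and SLC7A2 passed in all 4 conditions. With vehicle at 4 h 3 genes passed when only the compared groups were fitted. No share over all genes is given here for that fit, so its count is not read as a result about the 10 genes. With the block at 24 h 9 did, in a fit where 6479 of 14335 genes passed, against 5942 without the block.

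**Figure D3:**
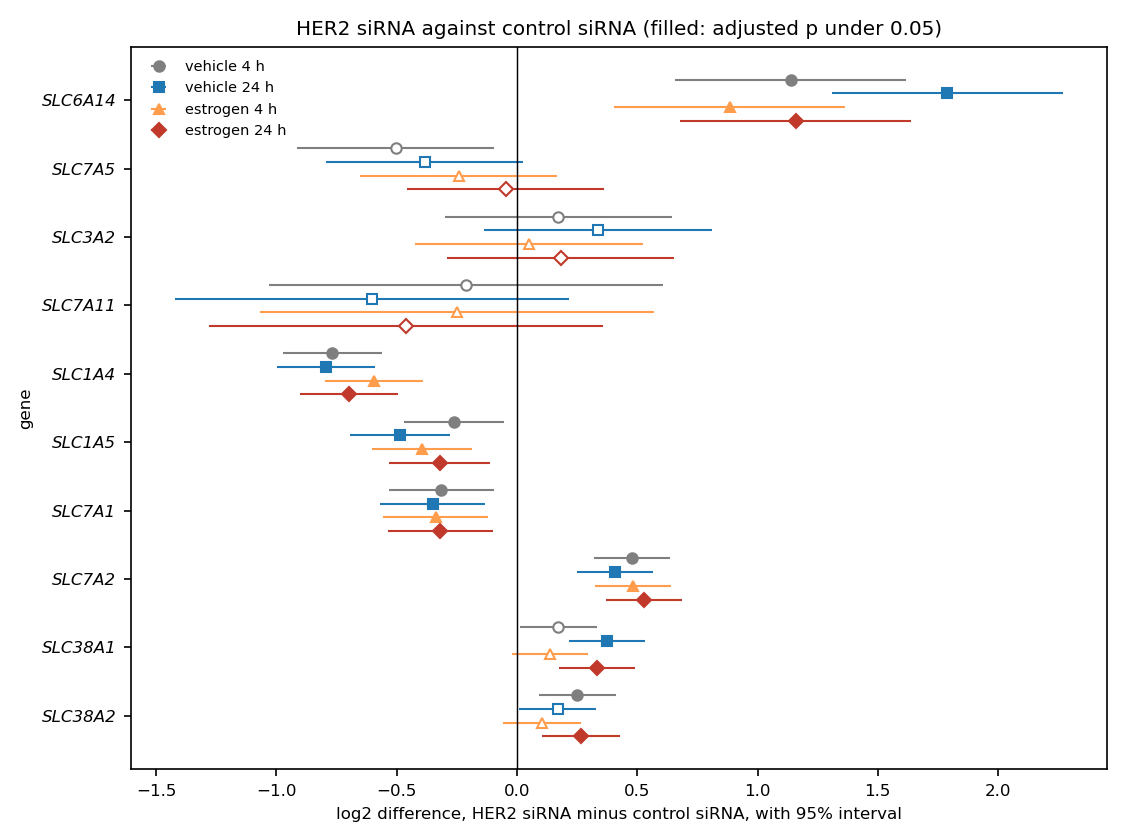
Log2 difference of HER2 siRNA minus control siRNA (x axis, bars are 95% intervals) for the 10 genes (y axis) in 4 conditions; filled symbols passed an adjusted p of 0.05. SLC6A14 lies at 0.89 to 1.79 and SLC1A4 at -0.79 to -0.59 in all 4 conditions.

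Estrogen moved fewer of the genes, and all that passed were higher. At 4 h in control cells SLC6A14 was the 1 gene of 10 to pass (0.342% of all tested genes passed, 0.335% higher), and with HER2 siRNA SLC6A14 and SLC7A5 did (0.698%, 0.663% higher). At 24 h SLC6A14, SLC7A5, SLC1A4 and SLC7A1 passed in control cells, 4 of 10 against 13.5% of all genes (7.01% higher). With HER2 siRNA these 4 and SLC7A2 did, 5 of 10 against 6.17% (4.28% higher). The median difference of the 10 genes at 24 h was 0.17 in control cells and 0.26 with HER2 siRNA, against -0.01 and 0.00 over all genes. Averaged over both siRNAs, in comparisons added after the values were seen, 3 passed at 4 h (SLC6A14 1.26 ± 0.16, SLC7A5 0.77 ± 0.14, SLC1A4 0.30 ± 0.07; 1.23% of all genes) and 5 at 24 h (SLC6A14 3.16 ± 0.16, SLC7A5 1.47 ± 0.14, SLC7A1 0.65 ± 0.07, SLC1A4 0.62 ± 0.07, SLC7A2 0.20 ± 0.05; 18.6%). The call of SLC1A4 at 4 h (adjusted p = 0.035) ended when any of 10 of the 12 arrays was left out (adjusted p = 0.050 to 0.12), all except HER2 siRNA vehicle replicate 1 and HER2 siRNA estrogen replicate 1. SLC3A2, SLC7A11, SLC1A5, SLC38A1 and SLC38A2 had no estrogen call in any of the 4 comparisons. In the fit averaged over siRNAs at 24 h SLC1A5 passed without control estrogen replicate 3 (0.22, adjusted p = 0.034) or HER2 siRNA vehicle replicate 1 (0.21, adjusted p = 0.041), and SLC7A2 did not with the mean of its probe sets (0.06, adjusted p = 0.37).

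**Figure D4:**
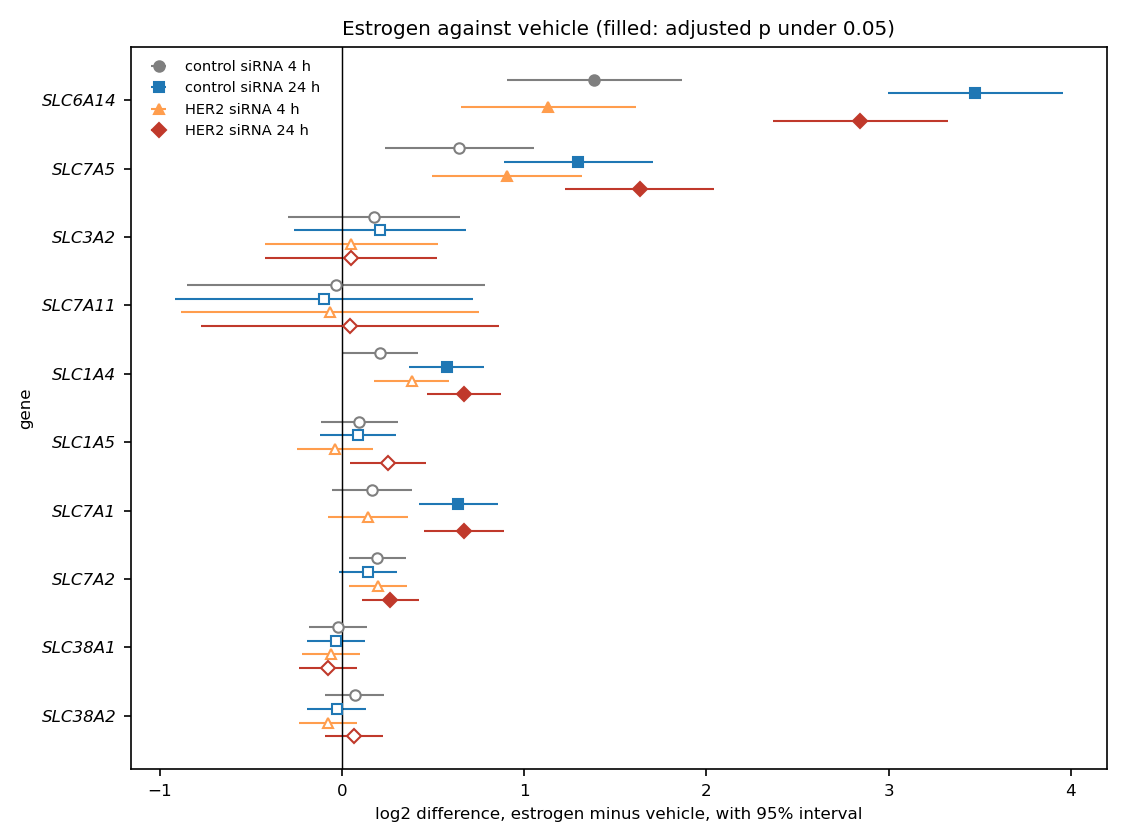
Log2 difference of estrogen minus vehicle (x axis, bars are 95% intervals) for the 10 genes (y axis) by siRNA and time; filled symbols passed an adjusted p of 0.05. SLC6A14 reaches 3.48 in control cells and 2.85 with HER2 siRNA at 24 h, and SLC7A5 1.30 and 1.63.

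Whether the estrogen effect differed between the siRNAs was tested directly. No gene of the 10 passed at 4 h, where 0 of 14335 genes did (0% of all; 403 had an unadjusted p under 0.05 in limma, none of them among the 10), nor at 24 h (0.0628% of all; 866 had an unadjusted p under 0.05, none among the 10). For SLC6A14 at 24 h the estrogen effect with HER2 siRNA minus that in control cells was -0.63 ± 0.33 (95% interval -1.31 to 0.05; adjusted p = 0.85). For SLC7A5 the difference of effects was 0.34 ± 0.28 (-0.24 to 0.92), for SLC1A4 0.10 ± 0.14 (-0.19 to 0.39) and for SLC7A1 0.03 ± 0.15 (-0.28 to 0.34). These intervals do not show that the effects were alike. The siRNA effect at 24 h minus that at 4 h passed for none of the 10 genes (2.95% of all; 1 of the 10, SLC38A1 with 0.20 ± 0.08, had an unadjusted p under 0.05). The estrogen effect at 24 h minus that at 4 h passed for SLC6A14 alone among the 10, with 2.09 ± 0.33 in control cells (95% interval 1.41 to 2.77; adjusted p = 0.0029; 1.28% of all genes) and 1.71 ± 0.33 with HER2 siRNA (1.03 to 2.39; adjusted p = 0.012; 0.516%). The second call ended when only the compared groups were fitted (adjusted p = 0.12) and without HER2 siRNA estrogen 24 h replicate 3 (0.055). SLC7A1 had 0.47 ± 0.15 (adjusted p = 0.14) and 0.53 ± 0.15 (adjusted p = 0.14), the second past the threshold without HER2 siRNA vehicle 4 h replicate 3 (0.033).

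From 4 h to 24 h SLC6A14 rose where estrogen was given, and SLC7A5 and SLC7A11 were the members that passed as lower in more than 1 condition. SLC3A2 was lower by a similar amount in all 4 (-0.71 to -0.55 ± 0.23), with none past the threshold singly. In control cells SLC7A5 passed with vehicle (1 of 10; 0.781% of all genes) and SLC6A14 and SLC7A11 with estrogen (2 of 10; 5.96%). With HER2 siRNA SLC7A5, SLC7A11, SLC1A4 and SLC1A5 passed with vehicle, all lower (4 of 10; 6.46%, 3.43% lower), and SLC6A14 and SLC7A11 with estrogen (2 of 10; 6.21%). SLC6A14 rose by 2.16 ± 0.23 and 2.43 ± 0.23 with estrogen (adjusted p = 8.4e-06 and 8.9e-07), whereas with vehicle the difference was 0.07 ± 0.23 in control cells and 0.72 ± 0.23 with HER2 siRNA (adjusted p = 0.93 and 0.066, the latter 0.035 without HER2 siRNA vehicle 4 h replicate 3). In the blocked fit for HER2 siRNA with vehicle, where equal numbers were taken as pairs, SLC6A14 (adjusted p = 0.024), SLC7A1 (0.021) and SLC3A2 passed too, for 7 of 10. In that fit 1670 of 14335 genes passed, against 926 without the block. Averaged over the 4 conditions, added after the values were seen, 5 genes were lower at 24 h (19.0% of all genes passed, 10.3% lower). They were SLC7A11, SLC7A5 (-0.67 ± 0.10), SLC3A2, SLC1A4 (-0.17 ± 0.05) and SLC1A5 (-0.17 ± 0.05), and SLC6A14 was higher (1.34 ± 0.12). The comparisons above share groups of arrays, so their results are not independent of each other.

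The other genes of amino acid handling were counted in lists without the 10 members. Of 24 other plasma membrane transporters 16 were tested. With HER2 siRNA 3 were higher and 3 lower (median -0.03), among them the taurine carrier SLC6A6 (-0.64 ± 0.05), SLC36A4 (-0.51 ± 0.04) and the light chains SLC7A8 (0.28 ± 0.04) and SLC7A9 (0.33 ± 0.06). Of 15 tested lysosomal transporters and amino acid sensors 9 were higher and 3 lower (median 0.26). These included CASTOR2 (0.73 ± 0.05), of the CASTOR family of arginine sensors, the Rag GTPase RRAGD (0.60 ± 0.05) and SLC38A7 (0.44 ± 0.04), and on the lower side the sestrin SESN1 (-0.48 ± 0.03). Of 10 mitochondrial carriers 2 were higher and 6 lower (median -0.27), with the ornithine carrier SLC25A15 at -0.74 ± 0.05, the aspartate-glutamate carrier SLC25A13 at -0.51 ± 0.04, the serine carrier SFXN1 at -0.39 ± 0.04 and the glutamate carrier SLC25A22 at -0.31 ± 0.04. The 19 genes of ATF4 and the amino acid response split, 6 higher and 9 lower (median -0.05). PSAT1, of serine synthesis, was lower (-1.21 ± 0.04), as were MTHFD2 (-0.32 ± 0.04) and CEBPG (-0.67 ± 0.08), and NUPR1 was higher (1.06 ± 0.04).

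Of 12 glutathione and NRF2 genes 3 were higher and 8 lower with HER2 siRNA (median -0.27), with glutathione synthetase GSS at -0.68 ± 0.03, malic enzyme ME1 at -1.02 ± 0.08, GPX4 at -0.28 ± 0.04 and NFE2L2 at -0.26 ± 0.05. Among 10 enzymes of glutamine, arginine and branched-chain amino acids 2 were higher and 5 lower (median -0.15). Glutamine synthetase GLUL was higher (1.39 ± 0.07), and the transaminases GOT1 (-0.70 ± 0.04) and GOT2 (-0.46 ± 0.04) and the arginase ARG2 (-1.09 ± 0.07) were lower. Of 17 cytosolic aminoacyl-tRNA synthetases 2 were higher and 13 lower (median -0.19), with IARS1 (-0.60 ± 0.03), VARS1 (-0.60 ± 0.06) and FARSB (-0.51 ± 0.04) lower and CARS1 (0.36 ± 0.03) higher. All these counts stand beside the 59.2% of all genes that passed, and the median over all genes was 0.00.

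With estrogen in control cells at 24 h, where 7.01% of all genes were higher and 6.52% lower, 7 of the 17 synthetases were higher and none lower (median 0.01), with FARSB at 0.60 ± 0.07, VARS1 at 0.60 ± 0.11, IARS1 at 0.37 ± 0.07 and YARS1 at 0.34 ± 0.07. No glutathione or NRF2 gene passed (median 0.00), and of the lysosomal list 4 were lower (SESN3 -0.74 ± 0.22, SAMTOR -0.56 ± 0.14, SESN1 -0.37 ± 0.07, CASTOR2 -0.35 ± 0.10; median -0.19). In the ATF4 list 3 were higher and 2 lower (median 0.06), with MTHFD2 at 0.54 ± 0.08, PSAT1 at 0.38 ± 0.08, DDIT4 at -0.76 ± 0.11 and NUPR1 at -0.35 ± 0.08. SLC38A5 (0.45 ± 0.13) and SLC25A15 (0.41 ± 0.09) were higher and SLC7A8 (-0.32 ± 0.07) and SLC25A44 (-0.26 ± 0.07) lower, the only calls among the other 16 transporters and the 10 mitochondrial carriers. In the enzyme list BCAT2 (0.30 ± 0.08) passed. From 4 h to 24 h, averaged over the conditions, where 8.63% of all genes were higher and 10.3% lower, 9 of the 12 glutathione and NRF2 genes were lower and none higher (median -0.38), and 9 of the 19 ATF4 genes were lower and none higher (median -0.18), against a median of 0.00 over all genes. GCLM (-0.82 ± 0.14), TXNRD1 (-0.59 ± 0.08), ATF3 (-1.04 ± 0.17) and ASNS (-0.39 ± 0.07) among these were named after their values were seen.

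**Figure D5:**
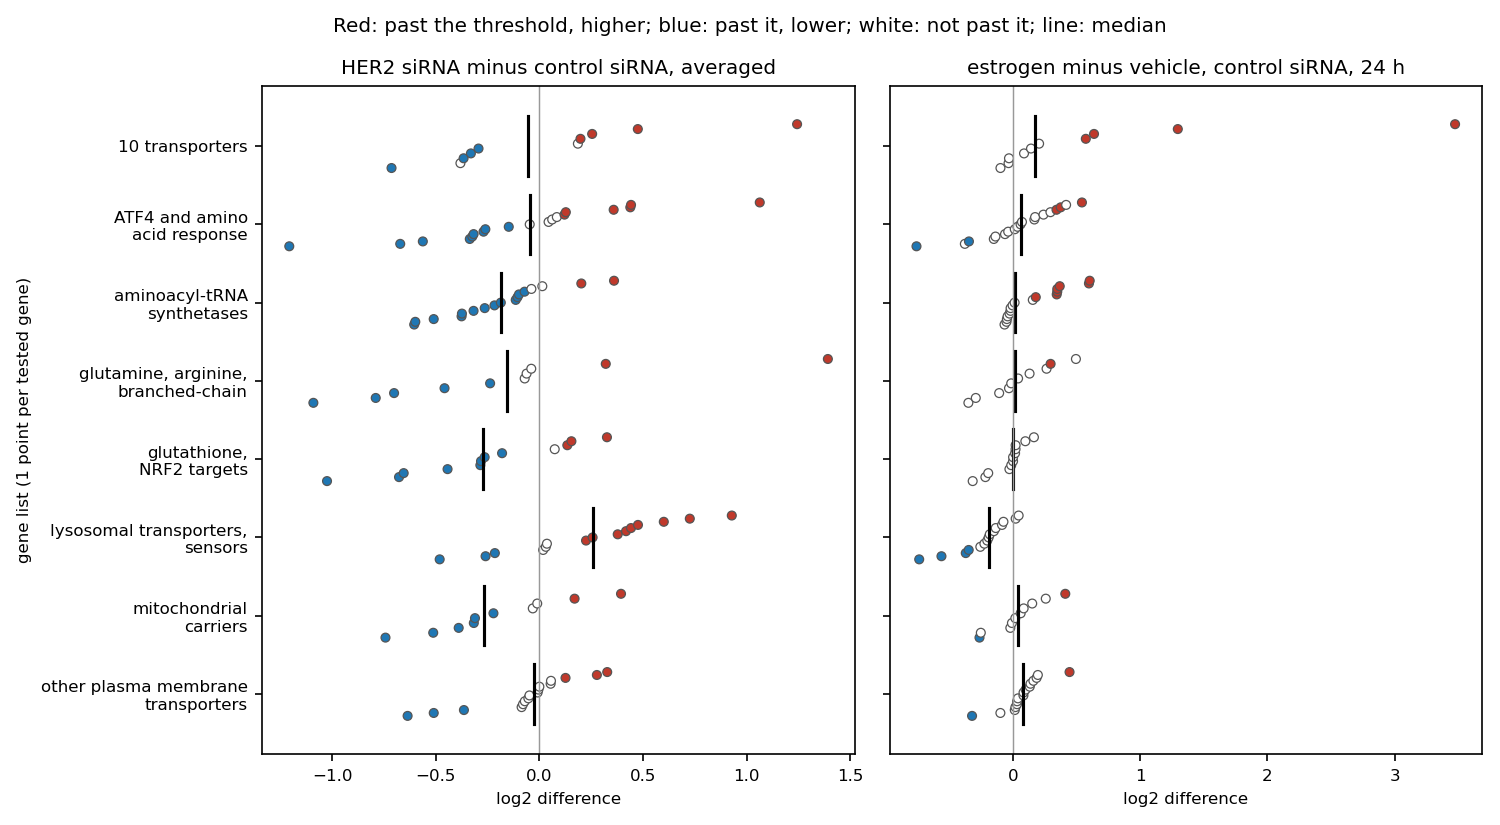
Log2 differences (x axis) of the 10 transporters and 7 lists of related genes (y axis, 1 point per tested gene) for HER2 siRNA minus control siRNA averaged over 4 conditions (left) and estrogen minus vehicle in control cells at 24 h (right). Red and blue points passed an adjusted p of 0.05 and black lines are medians, which lie between -0.27 and 0.26 on the left.

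For each member the genes most like it were found by Pearson's r of the log2 levels over the 24 arrays, a description of arrays that share siRNA, treatment, time and replicate number. SLC6A14 was most like IGFBP5 (0.972), the progesterone receptor gene PGR (0.966) and UGT2B15 (0.952). SLC7A5 was most like the glucose transporter gene SLC2A1 (0.938), PMAIP1 (0.900) and EOLA2 (0.872). These are the 2 members with the largest estrogen differences. SLC3A2 went with the endoplasmic reticulum genes FKBP11 (0.931) and MANF (0.923) and with ATF3 (0.904). SLC7A11 went with GDF15 (0.965), CEBPB (0.957) and AKR1C1 (0.957). SLC1A4 was nearest to PPIF (0.973), ECE2 (0.964) and the mitochondrial ornithine carrier SLC25A15 (0.961). SLC1A5 was nearest to SLC5A6 (0.921), HSPA4 (0.908) and GPI (0.904). Among the cationic carriers SLC7A1 was nearest to HSPA9 (0.946), AGPAT5 (0.922) and DDX21 (0.921), and SLC7A2 to ELP2 (0.942), MRM3 (0.940) and RNF44 (0.938). SLC38A1 had PAWR (0.956), RPS27 (0.942) and SPIN1 (0.942), and SLC38A2 had DNAJB9 (0.874), TRAM1 (0.874) and RNF149 (0.866).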

How the data were processed

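The authors deposited log2 levels made by RMA, per the submitters' processing notes, which normalises by quantiles; version and background step: not given in the sources used here. Genes were read from their brightest single-gene probe set (54675 probe sets, 19775 genes). Genes reaching log2 5 in 3 arrays or more, 14335, entered a limma 3.58.1 fit (R 4.3.3) of all 24 arrays with a mean for each group. Benjamini-Hochberg adjustment was done within each of 21 comparisons at 0.05. The fit was tested on simulated data. The number of arrays limits the precision.

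HER2 siRNA estrogen 4 h replicate 3 carries 24 h in its source name and was placed at 4 h by its other labels. The labels number the replicates but do not say that arrays of equal number belong together. By a chosen rule, equal numbers were taken as pairs where all 3 correlations of deviations exceeded 0.1. This held in 5 of 12 comparisons of 2 groups. They were HER2 siRNA with vehicle at both times and with estrogen at 4 h, estrogen at 24 h with HER2 siRNA, and time with HER2 siRNA and vehicle. Some missed the rule narrowly, such as estrogen at 4 h in control cells (0.099, 0.113 and 0.355). Alternatives were the filter, block, 3 arrays numbered apart, probe set choice, groups fitted, scaling, prior, GAPDH covariate and each array left out. Members, lists and rules were chosen with earlier results of these data known. Named are all members, of each list up to 4 genes with the smallest adjusted p in the averaged siRNA effect and in estrogen at 24 h in control cells, and the 3 genes of highest r.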

Additional observations from a re-analysis of the deposited data

Results flagged for a closer look

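For SLC6A14 the estrogen effect at 24 h differed from that at 4 h, by 2.09 ± 0.33 on the log2 scale in control cells (limma, adjusted p = 0.0029) and by 1.71 ± 0.33 with HER2 siRNA (adjusted p = 0.012). Both are tests of the difference between times itself, and in both siRNAs the effect was larger at 24 h. No group of 3 arrays was tested for outlying arrays.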

How the results depend on the processing

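Of 4470 alternative values of single genes 4116 kept their direction and side of the threshold, 120 fell below it and 48 rose above it with the direction kept. In 186 the sign turned while neither value passed the threshold, 136 of them with 1 array left out, and no value past the threshold turned. Counts of the 10 genes past the threshold moved by over 1.5 times as follows. Counts over all genes are given below for the block alone. The other counts here, and those with an array left out, are therefore not read as results about the 10 genes. With only the compared groups fitted they were 3 for HER2 siRNA with vehicle at 4 h, 0 for estrogen at 4 h with HER2 siRNA, 0 for the estrogen effect between times with HER2 siRNA, and, for 24 h against 4 h, 2 in control vehicle, 0 in HER2 siRNA vehicle and 1 in HER2 siRNA estrogen. With the replicate block they were 2 and 2 for the estrogen effect between times in control and HER2 siRNA cells and, over time, 3 in control vehicle and 7 in HER2 siRNA vehicle. Estrogen at 4 h with HER2 siRNA gave 1 without the 3 arrays numbered apart, 1 with equal medians and 1 with the GAPDH covariate. The time count of control estrogen was 1 with no filter, without the 3 arrays numbered apart, with the mean of probe sets, every probe set on its own, equal medians, quantile normalisation or an intensity trend with a robust prior. That of HER2 siRNA vehicle was 2 with no filter and 2 with equal medians, and that of HER2 siRNA estrogen 1 without the 3 arrays.

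Leaving out each array in turn gave 8 to 9 genes for the averaged siRNA effect, 4 to 6 and 6 to 6 with vehicle and 4 to 5 and 5 to 7 with estrogen at 4 h and 24 h. It gave 1 and 4 for estrogen in control cells, 0 to 2 and 4 to 5 with HER2 siRNA, and 2 to 3 and 5 to 6 averaged. For the estrogen effect between times it gave 1 in control cells and 0 to 2 with HER2 siRNA, and over time 0 to 1, 1 to 2, 0 to 6, 1 to 2 and, averaged, 6. In the averaged siRNA effect the block gave SLC3A2 and SLC7A11 calls (adjusted p = 0.012 and 0.0021). The rule for pairs was not applied to averages. Of the 4 conditions averaged, estrogen at 24 h did not meet it (0.176, 0.079 and 0.352). Over all groups 60 of 84 pairs with equal numbers had a correlation over 0.1 (median 0.205). Deviations sum to 0 within each group of 3 arrays. The median of other pairs, -0.107, is thus tied to that of equal numbers and is no separate sign of pairing. Over all genes the block raised the calls from 112 to 448, 855 to 1437, 926 to 1670 and 890 to 1514 over time, from 183 to 450 and 74 to 198 for the estrogen effect between times, from 423 to 829 for the siRNA effect between times, from 9 to 34 for the difference of estrogen effects at 24 h, and from 49 to 76 and 100 to 153 for estrogen at 4 h. The block changed no other call beyond those given here and above, apart from SLC1A4 for estrogen at 4 h with HER2 siRNA (adjusted p = 0.034), SLC7A1 for the estrogen effect between times (0.046 and 0.041), and SLC3A2 and SLC7A11 over time in control vehicle (0.0024 and 0.0010) and SLC3A2 over time with estrogen (0.0013 and 0.0054).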
